A study of Drosophila melanogaster with 2 samples.

Results

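The genes described here are the translation initiation and elongation factor genes of Drosophila melanogaster, chosen by symbol from the dm6 annotation as every protein-coding gene whose symbol begins with eIF or eEF. The rule gave 52 genes of 13945 protein-coding genes on 6 chromosome arms, of which 44 are initiation (eIF) and 8 are elongation (eEF) genes. The data are lists of ChIP-seq peaks, that is, places where sequenced DNA recovered with an antibody piled up, from whole embryos of mixed sex collected at an age of 0 to 14 h. All embryos came from 1 transgenic line that stably expresses CG3407, a zinc finger protein, with GFP fused to its C terminus, and 2 biological replicates form the only group. The labels differ on the libraries, since their free text speaks of an input control while the assay and antibody fields name a transcription factor ChIP; they were read as ChIP libraries because each peak list was derived from these alignments against a separate control file. Peaks from the control or from untagged embryos were not analysed here, so every value below is the presence or score of a peak and not a measured level of binding.

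Translation of an mRNA begins when initiation factors bring the small ribosomal subunit, carrying the initiator tRNA, to the capped end of the message and on to the start codon. The large subunit then joins, and elongation factors deliver each aminoacyl-tRNA and move the ribosome along. Nearly every cell needs both sets of factors, and in the fly some initiation factors also exist as testis-specific copies. Many genes of the translation machinery, ribosomal protein genes above all, start transcription at a pyrimidine-rich element called the TCT initiator. Many housekeeping genes of the fly also carry the DNA replication-related element (DRE), which the factor Dref binds.

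Of the 52 genes, 11 had a summit of the IDR list within 500 bp of an annotated transcription start site (TSS). The IDR list holds the 4089 intervals kept by the irreproducible discovery rate procedure, and the same test was met by 14.1% of all protein-coding genes. Elongation genes had such a summit in 4 of 8 cases, at eEF1gamma, eEF5, eEF2 and eEF1alpha1. Initiation genes had one in 7 of 44 cases (15.9%), at eIF6, eIF4EHP, eIF1, eIF3h, eIF3a, eIF5B and eIF3m. The initiation share lay close to the background and the elongation share lay above it, with a difference of -34.1 percentage points (initiation minus elongation) that rests on 8 elongation genes; genes of a list are not replicates of a condition, and no test was made between the sets. With each summit given to the nearest gene only, the counts were 4 of 44 initiation and 4 of 8 elongation genes against 10.5% of all protein-coding genes, and the difference was -40.9 percentage points. Counted in single replicates, among as many of the highest candidates as the IDR list holds, elongation genes had 4 of 8 in each replicate, and initiation genes had 7 of 44 in replicate 1 and 10 of 44 in replicate 2, each against 14.1% of all genes.

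The sequences at the summits show what lies under these peaks. The stretches below are from the RefSeq copy of the dm6 assembly, 5′ to 3′ on the coding strand of the named gene, and are the highest IDR summit of each gene with 50 bases on each side, shortened where more than 30 bases would belong to an untranslated exon. They are shown for 6 genes that differ in where the summit lies. Capitals mark every match, on either strand, to TATCGATA (the DRE) or TATAAA (the letters of the TATA box).
eEF1gamma: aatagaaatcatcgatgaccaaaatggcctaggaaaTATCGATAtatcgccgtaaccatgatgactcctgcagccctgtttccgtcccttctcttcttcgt
eEF2: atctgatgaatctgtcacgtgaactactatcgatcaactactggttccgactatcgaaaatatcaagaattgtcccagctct
eIF1: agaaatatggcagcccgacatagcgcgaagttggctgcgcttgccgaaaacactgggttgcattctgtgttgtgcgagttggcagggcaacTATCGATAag
eIF3a: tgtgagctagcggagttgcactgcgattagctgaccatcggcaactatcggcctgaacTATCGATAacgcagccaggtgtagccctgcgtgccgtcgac
eIF3h: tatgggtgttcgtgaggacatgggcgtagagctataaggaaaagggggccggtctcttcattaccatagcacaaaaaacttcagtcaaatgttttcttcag
eIF4EHP: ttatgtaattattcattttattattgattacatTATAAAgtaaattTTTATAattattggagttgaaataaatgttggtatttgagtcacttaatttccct
These stretches lie at chr3R:29220095-29220195 (plus strand) for eEF1gamma, chr2L:21682135-21682216 (minus) for eEF2, chr3L:3222954-3223054 (plus) for eIF1, chr3R:4433893-4433991 (minus) for eIF3a, chr2L:5052435-5052535 (minus) for eIF3h and chr3R:24109143-24109243 (minus) for eIF4EHP. The stretch at eIF4EHP is the most AT-rich of them, with a GC content of 18.8%, and the stretch at eIF3a the most GC-rich, with 57.6%.

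Full DRE matches were present at 3 of the 14 IDR summits near these genes, those of eEF1gamma, eIF1 and eIF3a shown above. By comparison, TATCGATA lay within 50 bp of 40 of the 1579 IDR summits near any protein-coding TSS (2.53%), of 42 of all 4089 IDR summits (1.03%) and of 0.633% of the 25911 pooled candidates outside the IDR list. The 72 summits near cytosolic ribosomal protein genes held it in 15 cases (20.8%). Summits of the translation factor and ribosomal protein genes together, 84 in number, accounted for 17 of the 40. Both summits at eIF1 are in both sets, because RpL28 also starts within 500 bp of them. The eIF1 summit with the match is nearer to RpL28, at 44 bp, than to eIF1, at 337 bp. The eIF3a summit is likewise nearer to CG1074, at 22 bp, than to eIF3a, at 48 bp. A match is a stretch of letters and not a shown binding site, and no factor other than CG3407 was assayed here.

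In promoters, the DRE was about as frequent in factor genes with a peak as in those without. In a window from 250 bp upstream to 50 bp downstream of the canonical TSS, TATCGATA was found in 12 of 44 initiation genes (27.3%) and 2 of 8 elongation genes, against 8.94% of all protein-coding genes and 29.5% of ribosomal protein genes. Among the 52, the share was 3 of 11 for genes with an IDR summit (27.3%) and 11 of 41 for the others (26.8%). The matching genes without an IDR summit included eIF2alpha and eIF2gamma, 2 subunits of the factor that carries the initiator tRNA, eIF4A, the RNA helicase that unwinds the start of the message, and eEF1delta.

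**Figure D1:**
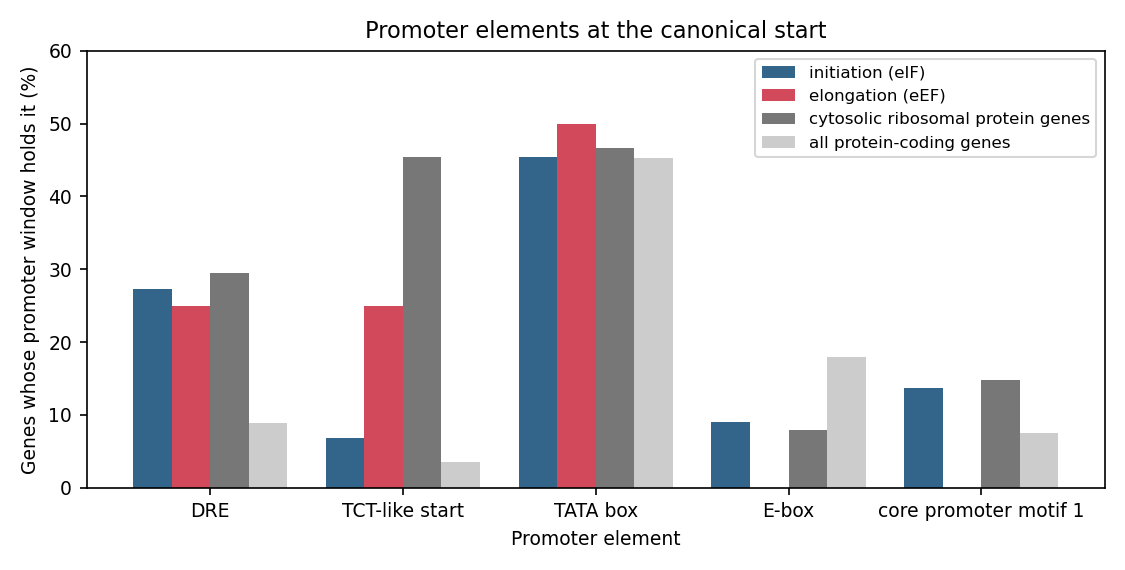
Share of genes (%, vertical axis) whose promoter window holds each element (horizontal axis), for 44 initiation, 8 elongation, 88 cytosolic ribosomal protein and all 13945 protein-coding genes. The DRE stands at 27.3% in initiation and 29.5% in ribosomal protein genes against 8.94% in all genes. The bars labelled TATA box count TATAAA on either strand anywhere in the window, not TATA boxes at a set place. They lie between 45.3% in all genes and 4 of 8 in elongation genes.

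Other elements set the 2 kinds of factor gene apart only in small counts. A TCT-like start, taken as CTTTC or CTTTT on the coding strand beginning within 5 bp of the canonical TSS, was present in 2 of 8 elongation genes, eEF2 and eEF5, and in 3 of 44 initiation genes, eIF3f1, eIF3i and eIF4A. The share was 3.52% in all protein-coding genes and 45.5% in ribosomal protein genes. Of the 5 genes, eEF2 and eEF5 had an IDR summit, 2 of the 11 genes with one against 3 of the 41 without. The starts of 4 of the 5 are given to show the match, as 30 bases each, with the annotated first base of the transcript at position 11 and the match in capitals.
eEF2: tgcagcgcctcgctCTTTCctgtcgaaacg
eIF3f1: actatcgataggccCTTTTcttgcatccct
eIF3i: cacggtcacactgctCTTTTggcgtgtagt
eIF4A: gcaagatggagcctCTTTTgcttggtttta
They lie at chr2L:21682097-21682126 (minus strand), chr3R:4714163-4714192 (minus), chr2L:4967756-4967785 (minus) and chr2L:5981754-5981783 (plus). The match began 4 bp downstream of the annotated start at eEF2, eIF3f1 and eIF4A and 5 bp downstream at eIF3i.

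TATAAA was counted on either strand anywhere in the promoter window, so a match is not by itself a TATA box. Counted so, TATAAA was present in 45.5% of initiation promoters and 4 of 8 elongation promoters against 45.3% of all. Of the 11 genes with an IDR summit 9 held it, against 15 of the other 41 (36.6%) and 45.2% of all genes with an IDR summit. Within 50 bp of the summits themselves it lay at 2 of 14 (14.3%), those of eIF6 and eIF4EHP, against 22.4% of all IDR summits and 25.6% of those near a protein-coding TSS. CAGCTG, an E-box, was in 4 of 44 and 0 of 8 promoters against 17.9% of all genes, while GGTCACAC, the core of promoter motif 1, was in 6 of 44 and 0 of 8 against 7.54%. All 6 of these promoters belonged to genes without an IDR summit. Within 50 bp of the summits GGTCACAC lay at 1 of 14, the higher of eEF1alpha1 (7.14%). It lay at 0.611% of all IDR summits, 1.39% of those near a protein-coding TSS and 11.1% of those at ribosomal protein genes. TATTTAC and TGTTTGC, searched because they had been met at these peaks earlier, were in 8 of 44 and 3 of 44 initiation promoters and 3 of 8 and 0 of 8 elongation promoters, against 9.72% and 8.50% of all. They lay within 50 bp of none of the 14 summits, against 8.36% and 6.26% of all IDR summits. The shares were 6.46% and 3.55% near a protein-coding TSS, and 4.17% and 1.39% at ribosomal protein genes. GC content within 50 bp had a median of 44.6% over the 14 summits, from 18.8% to 58.4%, against 33.7% over all IDR summits and 46.5% at ribosomal protein genes.

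Elongation factors are described first. eEF1gamma (chr3R:29220172-29222109, plus strand), a structural subunit of the complex that recharges eEF1 alpha with GTP, had the highest summit of the 8 genes. Its score was 819 in the IDR list, 388 in replicate 1 and 421 in replicate 2, on a scale that is specific to each list, and its ranks were 250, 190 and 334. The summit lay 27 bp upstream of the TSS in the pooled data, 41 bp upstream in replicate 1 and 3 bp upstream in replicate 2. It thus ranked 334 or better of 30000 candidates in every list, and no other gene started within 500 bp of it.

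eEF5 (chr2R:24057798-24059483, plus strand), the factor once named eIF5A, which helps the ribosome form difficult peptide bonds, had an IDR summit 3 bp downstream of its outer TSS, in the annotated 5' UTR. Its score was 371, with ranks of 1148 in the IDR list, 1562 in replicate 1 and 1088 in replicate 2. eEF2 (chr2L:21677913-21682164, minus strand), the GTPase that moves the ribosome by a codon, had a score of 277 and ranks of 1872, 1153 and 2245. Its summit lay 2 bp upstream of the outer of 2 annotated TSSs, which are 48 bp apart; in replicate 2 it lay 2 bp downstream of the inner TSS. Both genes had their summit within 16 bp of an annotated start in each replicate.

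eEF1alpha1 (chr2R:11891135-11895762, plus strand), the main carrier of aminoacyl-tRNA, had 2 IDR summits at different starts. The higher, with a score of 270 and rank 1953, lay in an intron, 51 bp upstream of an internal TSS and 675 bp downstream of the canonical one. The lower, with a score of 213 and rank 2779, lay 78 bp upstream of the outermost TSS and 78 bp from the start of ERp60, which runs the other way. The higher summit ranked 1075 in replicate 1 and 2222 in replicate 2.

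The other 4 elongation genes had no IDR summit. eEF1beta, the exchange factor subunit, had a pooled candidate with a score of 126 at rank 5824, 38 bp downstream of the TSS, and ranks of 4427 and 7193 in replicates 1 and 2. eEF1alpha2, the second carrier gene of the fly, had a candidate at rank 25244 of the pooled list and none in replicate 1. eEF1delta and eEFSec, which delivers selenocysteyl-tRNA, had no candidate near a TSS in any list. The nearest IDR summit was 31467 bp from a start of eEF1delta and 21267 bp from eEFSec. Of the eEF1 subunits, alpha1 and gamma thus had IDR summits, beta a lower candidate and delta none. An IDR summit was found at 14.1% and a pooled candidate at 41.6% of all protein-coding genes. With a set this small, this was not read as a difference between subunits.

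**Figure D2:**
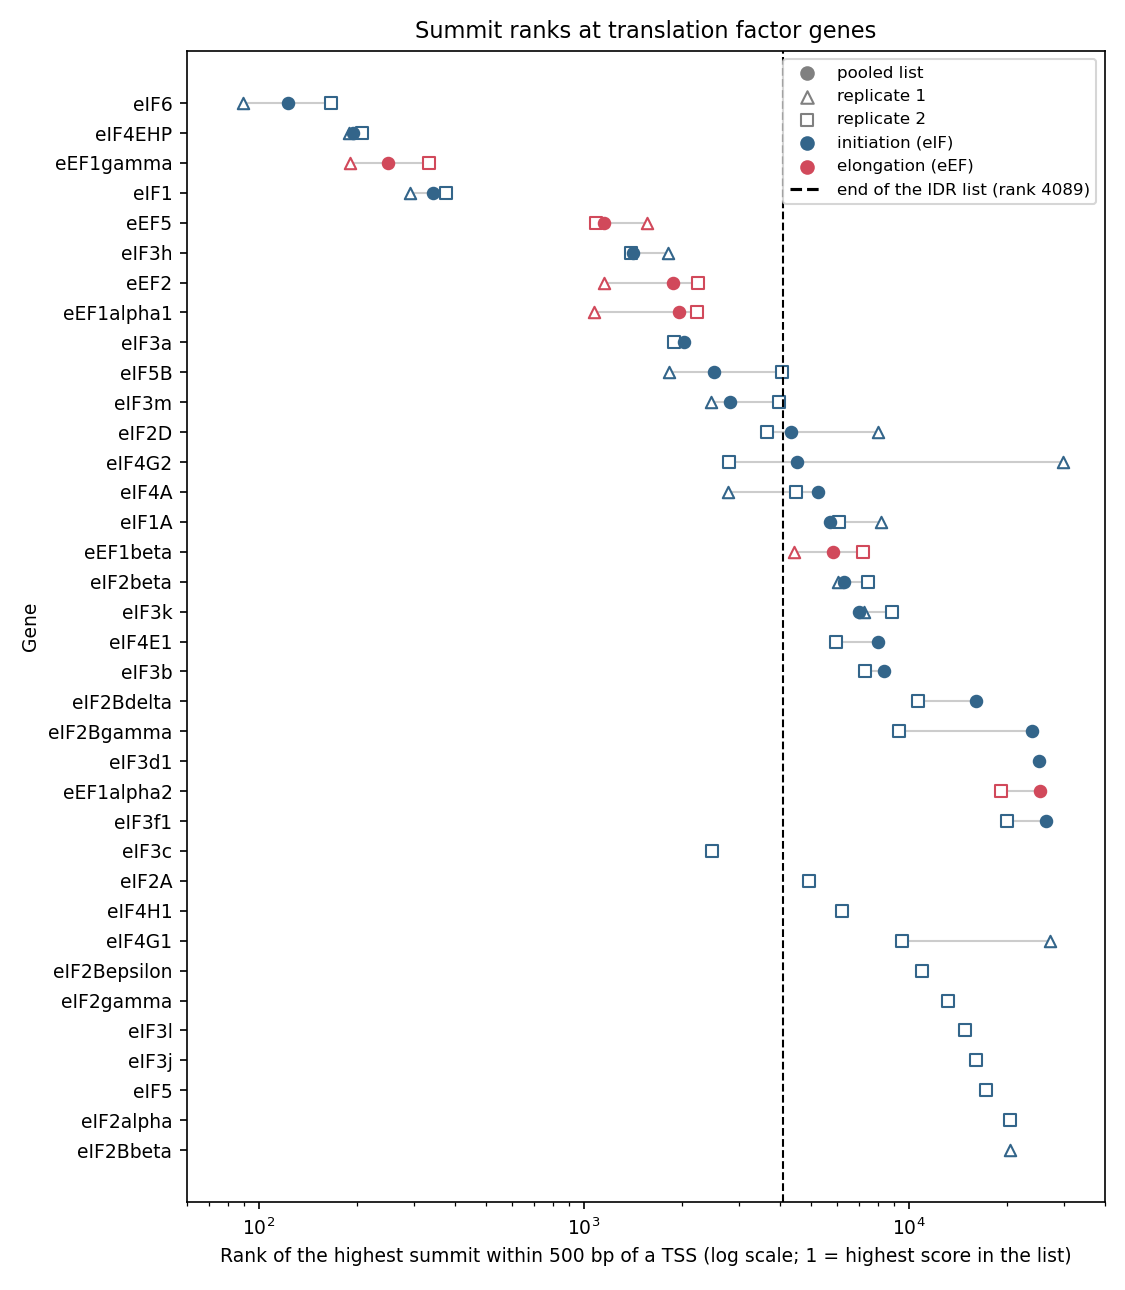
Rank of the highest summit within 500 bp of a TSS (horizontal axis, log scale, 1 is the highest score of a list) for each gene with a candidate in any list (vertical axis), with filled circles for the pooled list, triangles for replicate 1 and squares for replicate 2, in blue for initiation and red for elongation genes; grey lines join the values of a gene. The 11 genes at the top lie left of rank 4089 in the pooled list, and eIF3a among them has no triangle, since replicate 1 lists no candidate there.

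Initiation factors follow by role. Of the 5 genes for start codon choice and subunit joining, 3 had IDR summits, against 14.1% of all protein-coding genes. eIF6 (chr2R:23849246-23850301, minus strand), which keeps the large subunit from joining too early, had the highest score of all 52 genes, 1101 in the IDR list, 528 in replicate 1 and 574 in replicate 2. Its ranks were 123, 89 and 167, and the summit lay 99 bp upstream of the TSS. The start of asRNA:CR45928, an antisense transcript that runs the other way, was nearer, at 70 bp, so the peak cannot be credited to eIF6 alone.

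eIF1 (chr3L:3223341-3224650, plus strand), which guards start codon choice, had 2 IDR summits between it and RpL28, whose start lies 381 bp upstream on the opposite strand. The higher had a score of 702, with ranks of 343, 291 and 376 in the IDR list and replicates 1 and 2, and lay 337 bp upstream of eIF1 and 44 bp from RpL28, a large-subunit ribosomal protein gene. The lower had a score of 204 at rank 2947 and lay 126 bp upstream of eIF1 and 255 bp from RpL28. The higher summit was thus nearer to RpL28 and the lower nearer to eIF1.

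eIF5B (chr3L:3428658-3460977, minus strand), the GTPase of subunit joining, had an IDR summit with a score of 228 at rank 2515, 123 bp upstream of an inner TSS and 251 bp downstream of the canonical one, in the 5' UTR. Its ranks were 1830 in replicate 1 and 4050 in replicate 2, the latter just inside the number of peaks in the IDR list. The gene body held 3 further IDR summits away from any of its TSSs, the highest with a score of 317 at rank 1513, in an intron 27738 bp downstream of the nearest TSS. eIF1A, the partner of eIF1, had a pooled candidate at rank 5717, and eIF5 had one in replicate 2 alone, at rank 17189.

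No IDR summit lay near the 3 genes of eIF2, which carries the initiator tRNA, the 5 genes of eIF2B, which recharges eIF2 with GTP, or eIF2A and eIF2D, which have been linked to other ways of loading the initiator tRNA. An IDR summit was found at 14.1% of all protein-coding genes. With sets this small, having none was not read as a contrast between complexes. The candidates of these genes stood below the IDR list in the pooled data. eIF2D came closest, at pooled rank 4318 with a score of 157, rank 8008 in replicate 1 and 3647 in replicate 2. eIF2beta followed at rank 6319, eIF2Bdelta at 16077 and eIF2Bgamma at 23861, while eIF2A, eIF2Bepsilon, eIF2gamma and eIF2alpha had a candidate in replicate 2 alone, at ranks from 4922 to 20505, eIF2Bbeta in replicate 1 alone and eIF2Balpha in no list. An IDR summit lay 694 bp from the start of eIF2Bbeta, at rank 34; its neighbour Ugalt starts 719 bp upstream of eIF2Bbeta on the other strand.

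eIF3, the largest initiation complex, bridges the mRNA and the small subunit. Of its 16 genes 3 had an IDR summit (18.8%, against 14.1% of all protein-coding genes). eIF3h (chr2L:5051193-5053094, minus strand) had 2, with scores of 328 at rank 1413 and 219 at rank 2677. They lay 295 bp and 49 bp downstream of the inner of its TSSs, the first in an intron and the second in an annotated coding exon. The higher ranked 1812 in replicate 1 and 1391 in replicate 2. eIF3a (chr3R:4429798-4433895, minus strand), the scaffold subunit, had a score of 263 at rank 2035 and rank 1893 in replicate 2, with no candidate in replicate 1. Its summit lay 48 bp upstream of eIF3a and 22 bp from CG1074, in a gap of 70 bp between the 2 starts. eIF3m (chr2R:14163066-14164825, minus strand) had a score of 211 at rank 2819, with ranks of 2457 and 3978, 68 bp downstream of its TSS.

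The other 13 eIF3 genes had no IDR summit. eIF3k, eIF3b, eIF3d1 and eIF3f1 had pooled candidates at ranks from 7021 to 26364. eIF3c had a candidate 4 bp downstream of a TSS in replicate 2, with a score of 138 and rank 2483, but none in the pooled list or replicate 1. eIF3j and eIF3l had weaker candidates in replicate 2 alone, at ranks 16115 and 14903. eIF3d2, eIF3e, eIF3f2, eIF3g1, eIF3g2 and eIF3i had none in any list. None of the paralogues d1 and d2, f1 and f2, and g1 and g2 had an IDR summit. Most genes had none, since one was found at 14.1% of all protein-coding genes. Pooled candidates were listed at eIF3d1 and eIF3f1 and none in any list at eIF3d2 and eIF3f2. Those at eIF3d1 and eIF3f1 stood near the end of the 30000 candidates, at ranks 25054 and 26364. Replicate 1 listed neither of them, and replicate 2 listed eIF3f1 alone, at rank 20049. A pooled candidate was found at 41.6% of all protein-coding genes, so this was not read as a contrast between paralogues.

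Of the 13 genes of eIF4, which recognises the cap and unwinds the message, eIF4EHP alone had an IDR summit near a TSS. That share, 7.69%, stands beside 14.1% of all protein-coding genes. eIF4EHP (chr3R:24063077-24108960, minus strand) encodes a cap-binding protein that represses translation of particular messages in the fly embryo. Its score was 904 in the IDR list, 389 in replicate 1 and 511 in replicate 2, with ranks of 195, 189 and 208. The summit lay 233 bp upstream of eIF4EHP and 143 bp from CG18428 on the other strand, and a further IDR summit with a score of 184 lay in an intron 9750 bp downstream of the TSS. The peak thus stood among the highest of both replicates, and CG18428 was nearer to it than eIF4EHP.

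The other 12 genes of eIF4 had no IDR summit within 500 bp of a TSS. eIF4A, the helicase, had pooled rank 5255 with a score of 135, and ranks of 2767 in replicate 1 and 4500 in replicate 2. eIF4G2 had pooled rank 4536, with rank 29665 in replicate 1 and 2785 in replicate 2, and an IDR summit at rank 2913 in an intron 824 bp downstream of its nearest TSS. eIF4E1, the main cap-binding protein, had pooled rank 8015 and no candidate in replicate 1. eIF4G1, the scaffold of the cap complex, lies on chromosome 4 and had no pooled candidate but ranks of 27072 and 9495 in replicates 1 and 2, and eIF4H1 had one in replicate 2 alone, at rank 6200. eIF4B, eIF4H2 and the other 5 cap-binding genes, eIF4E3 to eIF4E7, had no candidate in any list. For eIF4B, which lies at chr3L:27842669-27858271, the nearest IDR summit on the arm was 3505452 bp away.

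In all, the 41 genes without an IDR summit comprised 14 with a pooled candidate outside the IDR list (12 initiation and 2 elongation), 11 initiation genes with a candidate in a replicate list alone, and 16 with none in any list (14 initiation and 2 elongation). Pooled candidates of any rank were found at 19 of 44 initiation genes (43.2%) and 6 of 8 elongation genes, against 41.6% of all protein-coding genes. In replicate 1 the counts were 14 of 44 and 5 of 8 against 36.1% of all genes, and in replicate 2 they were 28 of 44 and 6 of 8 against 47.2%. The 5 highest pooled candidates outside the IDR list were those of eIF2D, eIF4G2, eIF4A, eIF1A and eEF1beta, from rank 4318 to 5824, with eIF3m at 2819 the lowest gene inside it.

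**Figure D3:**
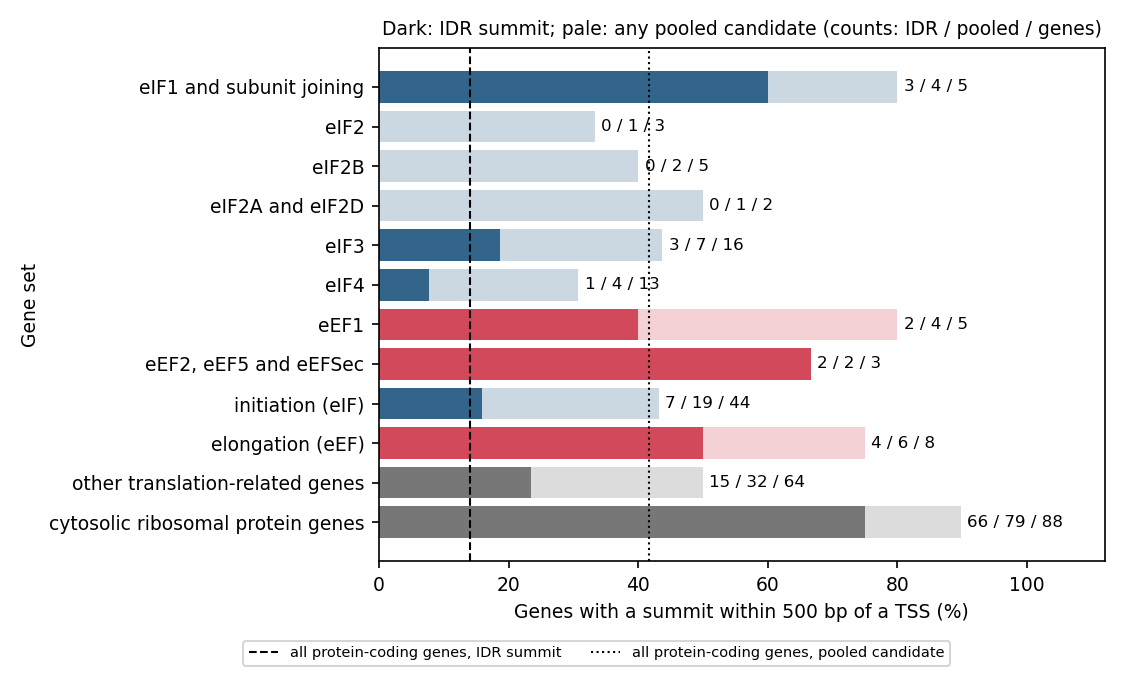
Share of genes (%, horizontal axis) with a summit within 500 bp of a TSS, by gene set (vertical axis), dark for the IDR list and pale for any pooled candidate; numbers give genes with an IDR summit, genes with a pooled candidate and genes in the set. The dashed and dotted lines are the shares over all protein-coding genes, 14.1% and 41.6%; eIF2, eIF2B and the pair eIF2A and eIF2D have no dark bar, and ribosomal protein genes reach 66 of 88.

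The positions of the summits are compared over 4 elongation and 7 initiation genes, with no test, and the ranges of the 2 sets overlapped. Over the highest IDR summit of each gene, the 4 elongation summits lay between 51 bp upstream and 3 bp downstream of the nearest TSS of the gene, with a median absolute distance of 15.0 bp. That median was 4 bp with replicate 2 alone and 25 bp with replicate 1 alone. For genes with an IDR summit, the distance differed by up to 65 bp between replicates where both listed a candidate. This largest gap was at eEF1alpha1, 70 bp upstream in replicate 1, outside the range above, and 5 bp upstream in replicate 2. Smaller differences between the sets were therefore not interpreted. The 7 initiation summits lay between 337 bp upstream and 295 bp downstream, with a median absolute distance of 123 bp, and the summit of eIF3a, at 48 bp upstream, lay within the elongation range. The same value was 157 bp over the 1964 protein-coding genes with an IDR summit and 28.0 bp over the 66 ribosomal protein genes with one. Within 100 bp, a distance chosen after the values were seen, lay 4 of 4 elongation, 3 of 7 initiation, 61 of 66 ribosomal protein (92.4%) and 28.3% of all such summits. The distance is to the nearest of several starts, and the 4 elongation genes have 2 to 4 annotated TSSs each. To the canonical TSS alone, the median absolute distance rose to 51.0 bp for elongation and 233 bp for initiation. The eEF1alpha1 summit taken was then its lower one, 339 bp upstream, outside the elongation range and the 100 bp given above. Distances to the canonical TSS were not computed for the ribosomal protein genes or all protein-coding genes.

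**Figure D4:**
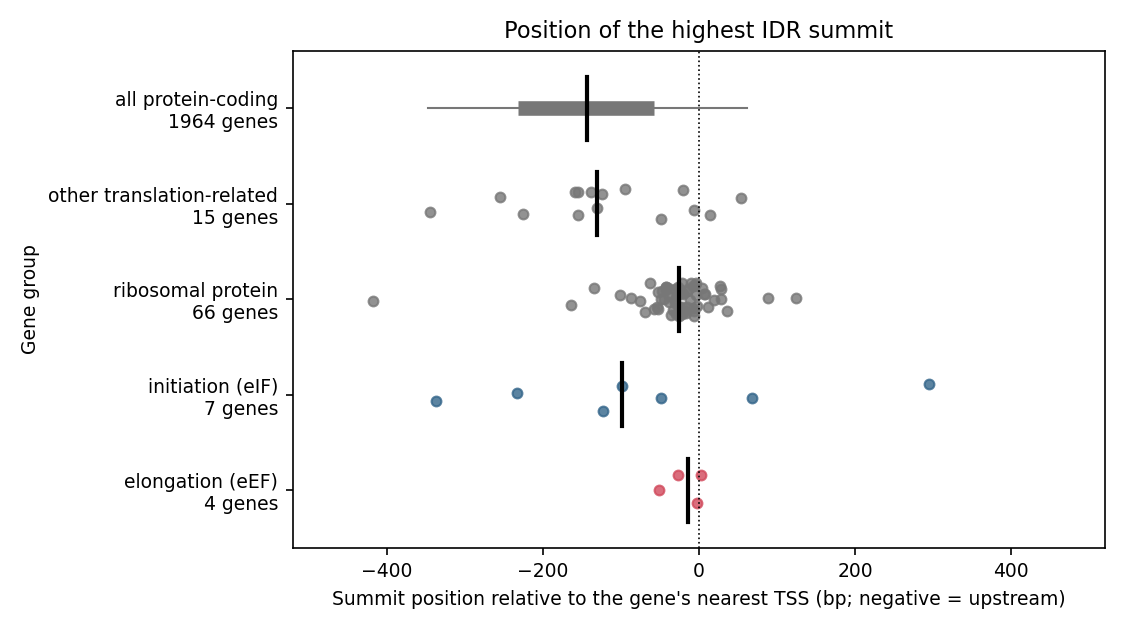
Position of the highest IDR summit relative to the nearest TSS of its gene (bp, horizontal axis, negative is upstream) by gene group (vertical axis); points are genes, black bars are medians, and for all protein-coding genes the thick bar spans the quartiles and the thin line the range from the 10th to the 90th percentile. The 4 elongation genes lie between -51 and 3 bp, inside the dense part of the ribosomal protein genes, and the 7 initiation genes between -337 and 295 bp.

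All 7 initiation genes with an IDR summit had a close divergent neighbour, meaning a gene whose start lies upstream, within 1000 bp, and which runs the other way. The count was 7 of 7 for them and 15 of 37 for the other initiation genes (40.5%), against 64.7% of all genes with an IDR summit and 35.5% of those without. Among elongation genes the counts were 2 of 4 and 3 of 4. At the highest summit, another gene also started within 500 bp in 6 of 7 initiation genes and 0 of 4 elongation genes, against 57.0% of all genes with an IDR summit. That other start was nearer than the gene's own at eIF6, eIF4EHP, eIF1 and eIF3a, 4 of 7, against 27.0% of all genes with an IDR summit, and at 0 of the 66 ribosomal protein genes. Peak lists alone cannot say which gene of such a pair a summit belongs to.

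Genes with neighbouring roles in translation were compared as a list of 64, made with earlier results of these data known. Of these, 15 had an IDR summit (23.4% against 14.1% of all protein-coding genes), with a median absolute distance of 130 bp. The 7 genes of release, ribosome rescue and poly(A) binding had 5. They were larp, an RNA-binding protein of growth control, at rank 90 with a score of 1237, the release factor eRF3 at 1449, the rescue factors pelo at 2076 and HBS1 at 2914, and the poly(A)-binding protein pAbp at 3879. Cytosolic tRNA synthetases had 6 of 20, with IleRS at rank 636, SerRS at 649 and GluProRS at 715, and mitochondrial synthetases had 1 of 15, ArgRS-m at 3050. Mitochondrial translation factors had 0 of 7. A pooled candidate was held by 5 of the 7, against 41.6% of all protein-coding genes. Regulators of initiation had 3 of 15, the 4E-binding protein gene Thor, whose product blocks eIF4E, at rank 1320 and 6 bp upstream of the TSS, the eIF2 kinase gene Gcn2 at 1041 and the TOR activator Rheb at 3198.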

How the data were processed

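The 2 libraries, replicates 1 and 2 by the labels, are ChIP-seq of embryos aged 0 to 14 h, with chromatin sheared to 200 to 800 bp. The authors deposited 30000 candidate intervals for each replicate and for both together, and 4089 IDR intervals, all on dm6; per the labels' file notes these were derived from alignments and a control file. The deposited score ranks peaks within a list, and the other column used is the summit offset. Nothing on the aligner, peak caller or IDR cut-off is given in the sources used here. By score, the IDR intervals equal the top 4089 pooled candidates, and being among them is no proof of a peak in each replicate. Read depth is unknown.

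A summit (interval start plus offset; in 2 IDR intervals it lies outside the interval) was assigned to every gene with a TSS within 500 bp (Ensembl release 115, transposable elements left out); where a gene had several, the highest score was taken. Sequence came from RefSeq. Python 3.11.15 and numpy 2.4.6 were used, and the assignment was tested on simulated data. No significance test was made, since 1 group and a chosen gene list allow none across samples. The members and lists were chosen with earlier results of these data known. Named genes are all members with an IDR summit, all elongation genes, the 5 highest members outside the IDR list and neighbours with a nearer start; others are named by complex. Alternatives were other TSS windows, the canonical TSS, the IDR peaks above the median score of 262, each replicate alone, nearest gene only and the placement of eEF5.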

Additional observations from a re-analysis of the deposited data

How the results depend on the processing

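Elongation genes with an IDR summit numbered 4 under TSS windows of 250 and 1000 bp, at the canonical TSS, among IDR peaks above the median score of 262, with each summit given to the nearest gene only and in each replicate alone, and 3 with eEF5 counted as initiation, a choice made after the data were seen. The initiation count was 7 with a 250 bp window and at the canonical TSS, 9 with 1000 bp (eIF2Bbeta and eIF4G2 added), 5 above the median score (eIF3m and eIF5B lost) and 8 with eEF5 added; with replicates left out in turn it ran from 7 to 10. It fell to 4 with the nearest gene only, where eIF3a, eIF4EHP and eIF6 were lost because another start was nearer. Shares over all protein-coding genes were not computed for the other windows, the canonical TSS or the peaks above the median score. Counts at these settings thus cannot be set against a background. The initiation share minus the elongation share, -34.1 percentage points, was -40.9 with the nearest gene only and -25.1 with eEF5 as initiation, and ran from -34.1 to -27.3 with a replicate left out. Without replicate 1, eIF2D, eIF3c and eIF4G2 were added; without replicate 2, eIF4A was added and eIF3a lost. The median rank of the highest summits was 1413 and ran from 1153 to 2058 with a replicate left out. The median absolute distance of initiation summits was 233 bp both with the 1000 bp window and at the canonical TSS, and that of elongation summits was 51.0 bp at the canonical TSS; with a replicate left out they ran from 101 to 173 bp and from 4 to 25 bp. The related list of 64 genes had 15 with an IDR summit, 7 above the median score, where fewer peaks were counted, and 13 to 16 with a replicate left out. The annotation already names the eIF5A gene eEF5, so counting that family as elongation changed nothing. With a replicate left out, the median signed distance (-48 bp) ran from -70 to -4 bp and the number of genes with a candidate (25) from 19 to 34. No paired analysis was possible because there is 1 group. Peaks cannot be credited to a gene of a shared promoter, and depth behind the scores is unknown.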
